A study of Mus musculus with 6 samples.

Results

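Rod photoreceptor and phototransduction genes were followed by bulk RNA-seq in the RPE of the mouse, the retinal pigment epithelium, a pigmented cell layer that lies against the photoreceptors and takes up the tips of their outer segments. The set is a named list of 40 genes, matched by gene symbol to the deposited table, and all 40 were found, each in 1 row, among 54532 genes. It names genes of rod phototransduction and its shut-off, of disc structure, and of transport, transcription and the synapse in photoreceptors. The RPE came from 3 Abca4-/- mice (Abca4KO, the Jackson line Abca4tm1Ght/J) and 3 wild-type mice (WT, Jackson strain 129S1/SvlmJ). Both genotypes carried the Leu450 form of Rpe65, were kept on a 12-h light cycle with a standard diet, and were sampled 5 h after light onset. Line and genotype change together in this design, so a difference between the groups cannot be told apart from a difference between the lines. Age and sex of the mice are not given in the sources used here, nor how the RPE was separated from the retina.

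Rods detect light in the outer segment, a stack of membrane discs. Light-activated visual pigment switches on transducin, which releases phosphodiesterase 6 from its inhibitory subunit. The enzyme lowers cGMP, the cGMP-gated channel closes and the cell hyperpolarises, after which kinase, arrestin and guanylate cyclase restore the dark state. The RPE does not carry out phototransduction but renews the chromophore and digests shed discs each day. Several proteins of the list have wider roles, among them the G-protein subunit encoded by Gnb1 and the lipid-binding chaperone encoded by Unc119. Abca4 itself encodes a retinoid transporter of photoreceptor discs that is also expressed in the RPE.

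Library totals lay between 17047286 and 19841307 counts, and mitochondrially encoded genes took 5.79% to 8.92% of them. Levels are given as CPM, counts scaled to library size with edgeR's TMM factors. The deleted gene matched the labels, with Abca4 at 32.6, 39.1 and 36.8 CPM in Abca4KO 1, 2 and 3, against 955, 932 and 968 CPM in WT 1, 2 and 3 (log2 fold change -4.72, SE 0.10, adjusted p = 4.48e-06 by edgeR's quasi-likelihood test). RPE markers led the samples. The retinoid carrier gene Ttr lay between 11723 and 14558 CPM over the 6 libraries and the isomerase gene Rpe65 between 4327 and 5593 CPM. The 40 rod genes together took 0.520%, 0.264% and 0.304% of the counts in Abca4KO 1, 2 and 3, against 0.371%, 0.242% and 0.369% in WT 1, 2 and 3. In bulk RNA, fewer rods or rod fragments in a sample cannot be told apart from less RNA per rod.

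No rod gene passed the test between the genotypes, and most varied several-fold between mice of the same genotype. All 40 genes passed the filter on low counts (filterByExpr, minimum count 10) and entered edgeR's quasi-likelihood test over 17340 genes. At the adjusted threshold of 0.05, 0 were called, against 0.0461% of all tested genes (0 higher in Abca4KO against 0.0346%, 0 lower against 0.0115%). DESeq2 and limma-voom also called 0. At an unadjusted p under 0.05 there was 1 rod gene, Rgs9, against 7.02% of all tested genes, and Rgs9 was lower in Abca4KO, as were 3.87% of all tested genes at that limit. The log2 fold changes of the 40, Abca4KO minus WT, ran from -0.34 to 0.69 with a median of 0.40, beside a median of -0.01 over all tested genes. They were positive for 33 and negative for 7, while 47.8% of all tested genes were positive. The standard errors of the 40 had a median of 0.537, against 0.184 over all tested genes. Without Abca4KO 1 the median turned to -0.282, with 3 positive and 37 negative, and without WT 2 it was 0.0876. With all 6 libraries kept it was also negative in limma-voom with sample weights, at -0.157. A covariate of bipolar, amacrine, horizontal and ganglion cell markers brought it to -0.0124. The direction of the median therefore depended on Abca4KO 1 and on the model.

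**Figure D1:**
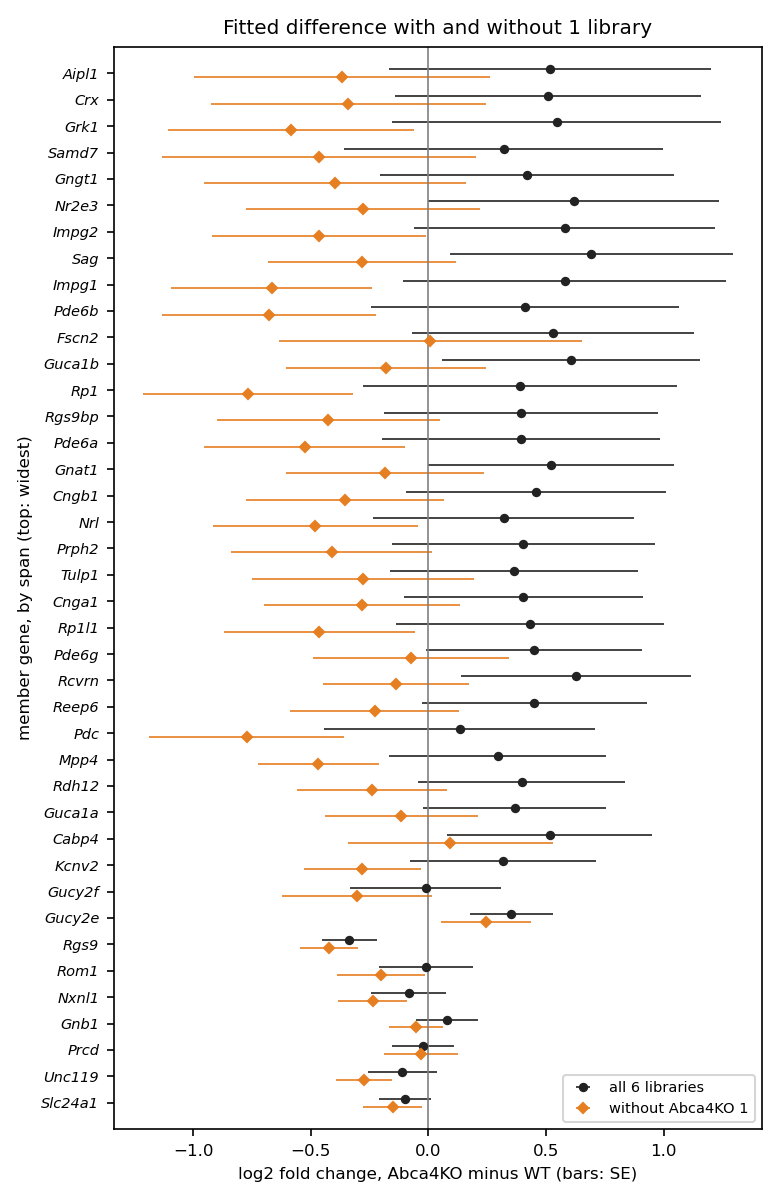
Fitted log2 fold change of each of the 40 rod genes, Abca4KO minus WT, with SE bars, from all 6 libraries (black) and without Abca4KO 1 (orange). With all 6 libraries 33 genes lie right of 0, without Abca4KO 1 only 3 do, and most genes at the bottom of the plot move less.

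The libraries fell into nearly the same order for most of the list. Abca4KO 1 was the highest library for 36 of the 40 genes (13.9% of all tested genes) and WT 2 the lowest for 30 (19.8%). Both held for 29, against 4.77% of all tested genes. In 27 genes the full order was Abca4KO 1, then WT 1 and WT 3, then Abca4KO 2 and Abca4KO 3, then WT 2, an order found in 1.32% of all tested genes. The groups therefore interleaved, with a WT library at the bottom and an Abca4KO library at the top. In 1 rod gene the values of the genotypes stayed apart, against 12.8% of all tested genes. That gene lay lower in Abca4KO (6.85% of all tested genes), and 0 lay higher (5.93%).

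**Figure D2:**
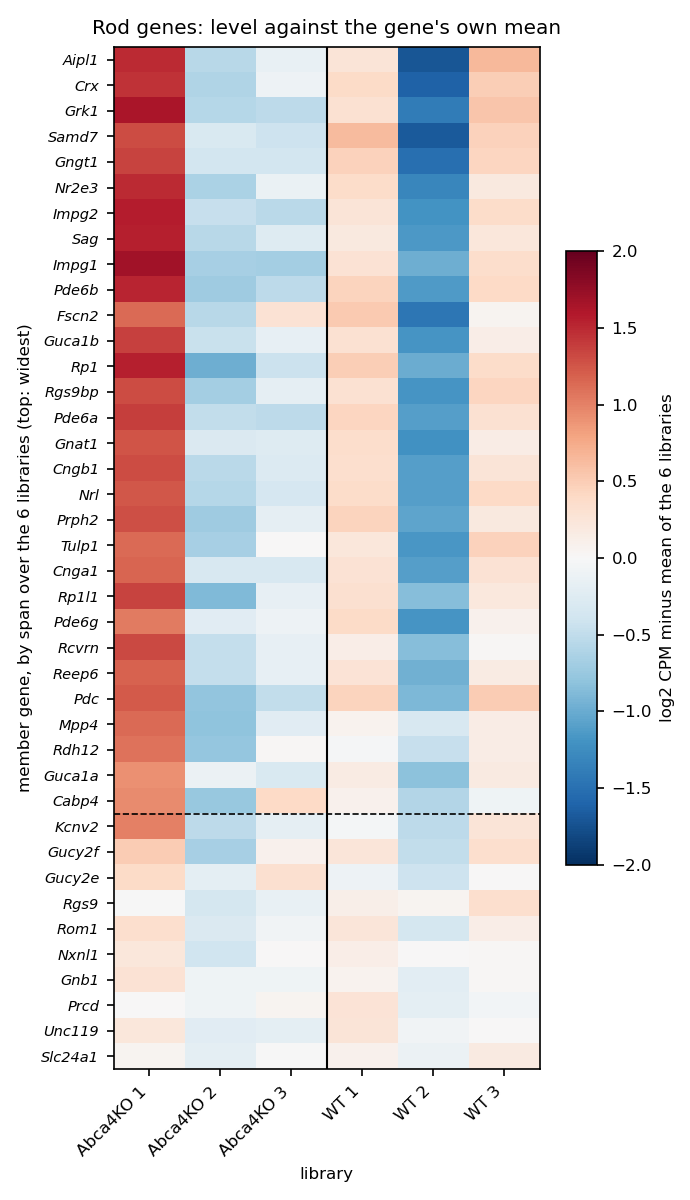
Level of the 40 rod genes in each library as log2 CPM minus the mean of that gene over the 6 libraries, genes ordered by span with the widest at the top. Above the dashed line at a span of 3, Abca4KO 1 is highest in all 30 genes and WT 2 lowest in 26, Abca4KO 2 being lowest in Rp1l1, Mpp4, Rdh12 and Cabp4. The 10 genes below the line swing less.

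The width of the swing separated the genes. The span, the highest library divided by the lowest in CPM, had a median of 4.86 over the 40 genes and 1.53 over all tested genes, and ran from 1.30 for Slc24a1 to 9.18 for Aipl1. A limit at 3, chosen after the values were seen and used only for description, put 30 genes above and 10 below, with Cabp4 (3.26) just above and Kcnv2 (2.89) just below. Of all tested genes, 18.4% had a span over 3. Among the 30 wide genes, the median log2 CPM was 5.49, 3.64 and 3.96 in Abca4KO 1, 2 and 3, against 4.43, 3.05 and 4.33 in WT 1, 2 and 3. In Abca4KO 1 they stood at 2.02 to 5.11 times the mean of the other 2 Abca4KO libraries (median 3.27), and in WT 2 at 0.213 to 0.737 times the mean of the other 2 WT libraries (median 0.374). The 10 narrow genes were Slc24a1, Unc119, Prcd, Gnb1, Nxnl1, Rom1, Rgs9, Gucy2e, Gucy2f and Kcnv2, with median log2 CPM of 6.63, 6.16 and 6.52 in Abca4KO 1, 2 and 3, against 6.48, 6.07 and 6.52 in WT 1, 2 and 3. Per length, as TPM (counts scaled by gene length and library), the narrow genes had a median level of 74.1 and the wide genes one of 11.2.

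**Figure D3:**
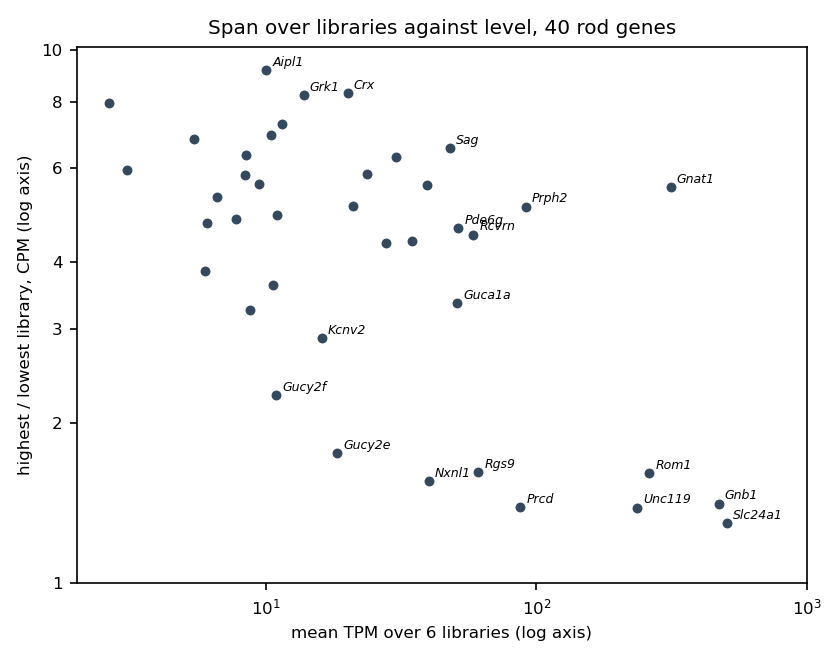
Span of each rod gene over the 6 libraries, as the highest CPM divided by the lowest, against its mean TPM, both on log axes. Slc24a1, Gnb1, Rom1 and Unc119 combine a high level with a span under 2, whereas Gnat1, at a similar level, has a span of 5.52.

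The promoters of 29 of the 40 genes were in the RefSeq table for GRCm38.p6, as 250 bases before to 50 after the start. Rod genes are known targets of the homeobox factor CRX and the leucine-zipper factor NRL, so 2 motifs were searched on both strands, TAATCC for CRX and TGCTGA for the core of the NRL element. No end of one motif matches the start of the other, so they cannot overlap. TAATCC was in a promoter of 13 of the 29 genes (44.8%), against 8.14% of 27025 genes in the table. TGCTGA was in 9 of the 29 (31.0%), against 21.7%. TAATCC was in 9 of 20 wide genes and 4 of 9 narrow ones, similar shares in small sets. These counts set no limit on the distance of a start from the deposited gene start. That distance was 2102 and 3574 bases for the matches in narrow Unc119 and Prcd. It was 1523, 1753 and 216 bases for those in wide Cnga1, Mpp4 and Gngt1. A match is a run of letters and not a known site. The promoters of 2 wide genes, Sag and Pde6b, and 2 narrow ones, Gucy2e and Nxnl1, are shown 5′ to 3′ as examples of different roles. They have the highest mean CPM in their roles among genes with a match whose start in the table lies within 100 bases of the deposited gene start, a condition added after the values were seen. The capitals are matches on either strand. The promoters lie at chr1:87803430-87803729 on the plus strand (Sag), chr5:108388123-108388422 on the plus strand (Pde6b), chr11:69236973-69237272 on the minus strand (Gucy2e) and chr8:71566600-71566899 on the minus strand (Nxnl1).
Sag: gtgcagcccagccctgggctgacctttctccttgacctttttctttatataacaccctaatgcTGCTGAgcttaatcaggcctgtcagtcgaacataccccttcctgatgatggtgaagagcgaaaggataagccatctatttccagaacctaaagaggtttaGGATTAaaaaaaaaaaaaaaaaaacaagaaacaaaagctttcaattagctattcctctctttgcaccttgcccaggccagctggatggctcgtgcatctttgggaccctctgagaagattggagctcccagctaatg
Pde6b: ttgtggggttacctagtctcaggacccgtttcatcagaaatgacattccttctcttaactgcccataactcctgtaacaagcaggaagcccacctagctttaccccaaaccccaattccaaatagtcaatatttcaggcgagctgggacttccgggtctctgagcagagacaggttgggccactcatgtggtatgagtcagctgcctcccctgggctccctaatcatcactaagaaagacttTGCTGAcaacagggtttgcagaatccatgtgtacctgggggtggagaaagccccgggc
Gucy2e: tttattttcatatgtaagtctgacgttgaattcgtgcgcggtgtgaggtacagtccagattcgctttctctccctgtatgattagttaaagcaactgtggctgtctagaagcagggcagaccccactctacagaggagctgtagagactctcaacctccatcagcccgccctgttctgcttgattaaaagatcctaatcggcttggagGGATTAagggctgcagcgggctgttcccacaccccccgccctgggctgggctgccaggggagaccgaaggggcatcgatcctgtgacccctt
Nxnl1: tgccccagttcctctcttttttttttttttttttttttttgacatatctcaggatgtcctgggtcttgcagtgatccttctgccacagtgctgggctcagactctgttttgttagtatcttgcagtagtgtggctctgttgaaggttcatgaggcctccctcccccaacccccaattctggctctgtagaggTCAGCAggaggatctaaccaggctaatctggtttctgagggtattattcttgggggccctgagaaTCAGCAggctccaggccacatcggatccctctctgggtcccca
In Sag the capitals mark TGCTGA at 187 bases and the reverse complement of TAATCC at 87 bases before the start. In Gucy2e they mark the reverse complement of TAATCC at 42 bases before it. In Pde6b they mark TGCTGA at 8 bases before it. In Nxnl1 the reverse complement of TGCTGA begins at 58 bases before the start and again just after it.

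Transducin, the G protein that carries the light signal, has a rod α subunit (Gnat1), a β subunit (Gnb1) and a rod γ subunit (Gngt1). Gnat1 (chromosome 9, 107674474 to 107679712, minus strand, mm10) measured 680.0, 233 and 237 CPM in Abca4KO 1, 2 and 3, against 363, 123 and 315 CPM in WT 1, 2 and 3. Abca4KO 1 was the highest library and WT 2 the lowest, with the groups overlapping (log2 fold change 0.52, SE 0.52, adjusted p = 0.880). Gngt1 measured 29.2, 8.87 and 8.89 CPM in Abca4KO 1, 2 and 3, against 15.8, 4.03 and 15.4 CPM in WT 1, 2 and 3, in the same order. Gnb1, which many cell types express, measured 842, 655 and 648 CPM in Abca4KO 1, 2 and 3, against 729, 596 and 705 CPM in WT 1, 2 and 3, a span of 1.41, and the groups overlapped here as well (log2 fold change 0.08, SE 0.13, adjusted p = 0.932; without Abca4KO 1 the log2 fold change was -0.05). The ratio of Gnat1 to Gngt1 in TPM was 27.001, 30.5 and 30.9 in Abca4KO 1, 2 and 3, against 26.7, 35.5 and 23.8 in WT 1, 2 and 3, a span of 1.49, whereas that of Gnat1 to Gnb1 was 1.14, 0.501 and 0.515 in Abca4KO 1, 2 and 3, against 0.701, 0.291 and 0.630 in WT 1, 2 and 3. Gnb1 had the same order of libraries as Gnat1, except that Abca4KO 2 and Abca4KO 3, close together in both, changed places. Its swing was smaller. These ratios and those given below were chosen after the values were seen and carry no test.

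Phosphodiesterase 6, the enzyme that hydrolyses cGMP, has 2 catalytic subunits (Pde6a, Pde6b) and an inhibitory one (Pde6g). Pde6a measured 134, 36.8 and 36.1 CPM in Abca4KO 1, 2 and 3, against 69.8, 23.998 and 63.7 CPM in WT 1, 2 and 3 (log2 fold change 0.39, SE 0.59, adjusted p = 0.927). Pde6b, whose promoter is shown above, measured 121, 26.01 and 29.5 CPM in Abca4KO 1, 2 and 3, against 57.9, 19.3 and 55.96 CPM in WT 1, 2 and 3. Pde6g measured 75.5, 31.5 and 34.1 CPM in Abca4KO 1, 2 and 3, against 48.2, 16.3 and 38.98 CPM in WT 1, 2 and 3. All 3 had the order described, with Abca4KO 1 at 3.68, 4.37 and 2.30 times the mean of the other Abca4KO libraries for Pde6a, Pde6b and Pde6g. Between the catalytic subunits the TPM ratio of Pde6a to Pde6b was 1.23, 1.57 and 1.36 in Abca4KO 1, 2 and 3, against 1.34, 1.38 and 1.27 in WT 1, 2 and 3, a span of 1.28. Without Abca4KO 1 the log2 fold change of Pde6a was -0.53 and that of Pde6b -0.68.

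The channel group was mixed. Cnga1 and Cngb1 encode the 2 subunits of the cGMP-gated channel, Slc24a1 the sodium, calcium and potassium exchanger that clears calcium from the rod outer segment, and Kcnv2 a silent subunit of a photoreceptor potassium channel. Cngb1 measured 45.3, 12.6 and 15.2 CPM in Abca4KO 1, 2 and 3, against 22.9, 8.54 and 21.8 CPM in WT 1, 2 and 3, and Cnga1 had a span of 4.82 in the same order. Their TPM ratio, Cnga1 to Cngb1, stayed between 1.09 and 1.39. Slc24a1 (chromosome 9, 64922861 to 64951607, minus strand) measured 938, 794 and 900.5 CPM in Abca4KO 1, 2 and 3, against 959.9, 833 and 1028 CPM in WT 1, 2 and 3. At a mean of 506 TPM it was the highest of the 40 genes per length and also the one with the narrowest span, 1.30, and its groups averaged 877 ± 75.1 CPM in Abca4KO and 940.4 ± 99.2 CPM in WT (SD, n = 3 per genotype). The fitted log2 fold change was -0.10 (SE 0.11, adjusted p = 0.889). Kcnv2 measured 52.1, 18.1 and 23.01 CPM in Abca4KO 1, 2 and 3, against 25.3, 18.2 and 31.3 CPM in WT 1, 2 and 3, with Abca4KO 1 alone above the others (log2 fold change 0.32, SE 0.40, adjusted p = 0.904; without Abca4KO 1 the log2 fold change was -0.28).

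**Figure D4:**
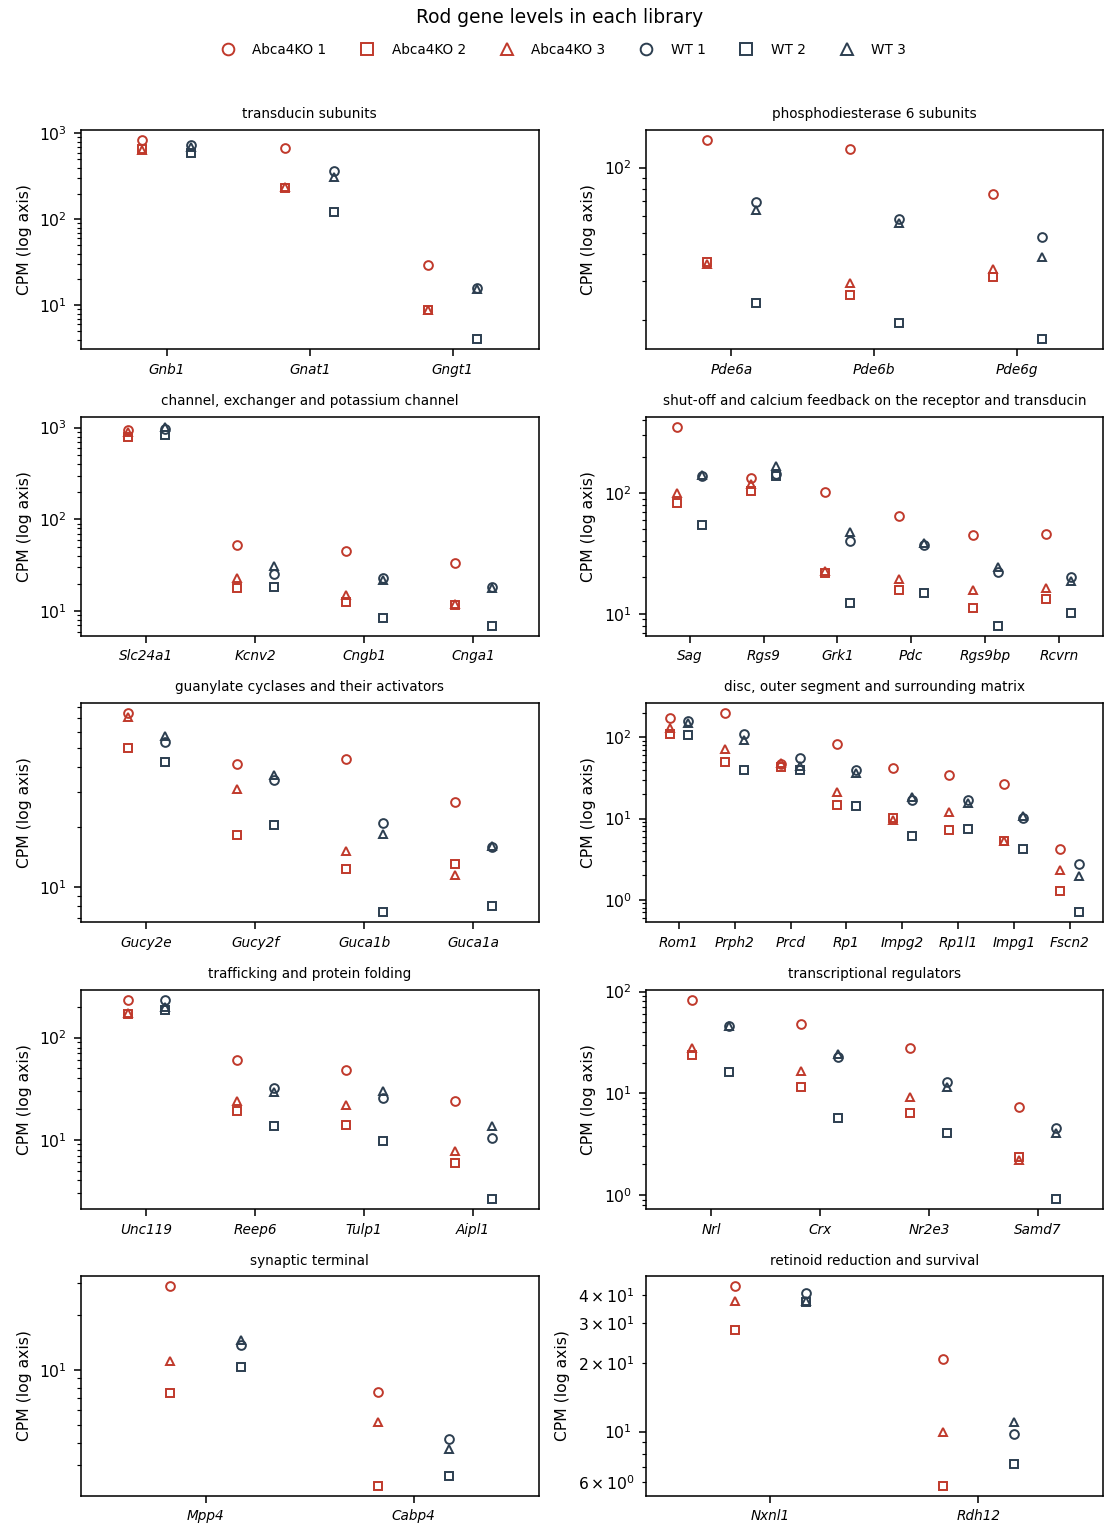
CPM of each rod gene in each library on log axes, in panels by role, with Abca4KO libraries (red) left of WT libraries (dark) and replicate 1 as circles, 2 as squares and 3 as triangles. In most genes the red circle lies on top and the dark square at the bottom, while Slc24a1, Gnb1, Unc119, Prcd, Rom1 and Rgs9 show tight groups of points.

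Of the genes that end the response, Rgs9 was the exception of the list. Rgs9 encodes the GTPase-activating protein that switches transducin off, and Rgs9bp the membrane anchor that holds it. Rgs9 (chromosome 11, 109225355 to 109298129, minus strand) measured 132, 103 and 119 CPM in Abca4KO 1, 2 and 3, against 143, 138 and 167 CPM in WT 1, 2 and 3. Each Abca4KO library lay below each WT library, which held for no other rod gene. The groups averaged 118 ± 14.4 CPM in Abca4KO and 149 ± 15.9 CPM in WT (SD, n = 3 per genotype), with a log2 fold change of -0.34 (SE 0.12, unadjusted p = 0.0234, adjusted p = 0.669 in edgeR's quasi-likelihood test over all genes), so that Rgs9 did not pass the threshold. Rgs9bp measured 44.6, 11.2 and 15.9 CPM in Abca4KO 1, 2 and 3, against 22.3, 7.95 and 24.4 CPM in WT 1, 2 and 3, in the order of the wide genes. The TPM ratio of Rgs9 to its anchor therefore varied, at 3.06, 9.49 and 7.74 in Abca4KO 1, 2 and 3, against 6.62, 17.9 and 7.08 in WT 1, 2 and 3.

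The other shut-off genes followed the wide pattern. Sag, the rod arrestin that caps the activated pigment, measured 355, 81.9 and 100.2 CPM in Abca4KO 1, 2 and 3, against 137, 54.1 and 141 CPM in WT 1, 2 and 3 (log2 fold change 0.69, SE 0.60, adjusted p = 0.860; without Abca4KO 1 the log2 fold change was -0.28). Grk1, the pigment kinase, measured 101, 21.9 and 22.7 CPM in Abca4KO 1, 2 and 3, against 40.1, 12.3 and 47.7 CPM in WT 1, 2 and 3, a span of 8.21. Its transcript holds a stretch that aligns over 348 to 356 bases, at 95% identity or more, with transcripts of several other genes, so part of its count is uncertain. Recoverin, the calcium sensor that restrains the kinase (Rcvrn), had a span of 4.51 and phosducin, which binds the transducin βγ pair (Pdc), one of 4.34. Pdc had the smallest positive log2 fold change of the wide genes, 0.13 (SE 0.58, adjusted p = 0.980), and without Abca4KO 1 it had the lowest of the 40, -0.77.

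Guanylate cyclases and their activators split in their spans. The activators Guca1a and Guca1b, calcium sensors that stimulate cGMP synthesis when calcium is low, had spans of 3.35 and 5.85 and the order of the wide genes. The cyclases themselves were narrower. Gucy2e (chromosome 11, 69218117 to 69237036, minus strand) measured 74.4, 49.5 and 70.8 CPM in Abca4KO 1, 2 and 3, against 53.1, 42.4 and 56.8 CPM in WT 1, 2 and 3. Abca4KO 1 and Abca4KO 3 lay above all WT libraries and Abca4KO 2 among them, with group means of 64.9 ± 13.5 CPM in Abca4KO and 50.8 ± 7.49 CPM in WT (SD, n = 3 per genotype). The fitted log2 fold change was 0.35 (SE 0.18, adjusted p = 0.746). It was 1 of 3 rod genes with a positive log2 fold change when Abca4KO 1 was left out (0.24), the others being Cabp4 (0.09) and Fscn2 (0.01). Gucy2f measured 41.2, 18.3 and 30.9 CPM in Abca4KO 1, 2 and 3, against 34.2, 20.5 and 36.4 CPM in WT 1, 2 and 3 (log2 fold change -0.01, SE 0.32, adjusted p = 0.995).

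Disc and outer segment genes covered the whole range of spans. Prph2 and Rom1 encode partner tetraspanins that shape the disc rim. Prph2 measured 198, 49.3 and 71.7 CPM in Abca4KO 1, 2 and 3, against 110.3, 39.03 and 92.1 CPM in WT 1, 2 and 3. Rom1 (chromosome 19, 8927382 to 8929356, minus strand) measured 171, 111 and 129 CPM in Abca4KO 1, 2 and 3, against 159, 106 and 148 CPM in WT 1, 2 and 3 (log2 fold change -0.01, SE 0.20, adjusted p = 0.994). Both had the same order of libraries, but the TPM ratio of Prph2 to Rom1 was 0.591, 0.226 and 0.283 in Abca4KO 1, 2 and 3, against 0.352, 0.187 and 0.316 in WT 1, 2 and 3, so Rom1 swung less than its partner. Prcd, a small disc protein, measured 46.3, 43.5 and 47.8 CPM in Abca4KO 1, 2 and 3, against 55.8, 40.1 and 44.1 CPM in WT 1, 2 and 3, a span of 1.39 with WT 1 highest (log2 fold change -0.02, SE 0.13, adjusted p = 0.984). Its exons share 201 bases with Cygb on the opposite strand, which had 19048 counts over the 6 libraries against 5201 for Prcd, so the count of Prcd is uncertain.

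Rp1 and Rp1l1, which organise the axonemal microtubules along the outer segment, had spans of 5.82 and 4.74. Rp1 measured 83.2, 14.5 and 21.04 CPM in Abca4KO 1, 2 and 3, against 39.8, 14.3 and 36.5 CPM in WT 1, 2 and 3. Rp1l1 measured 34.5, 7.28 and 12.03 CPM in Abca4KO 1, 2 and 3, against 16.9, 7.46 and 15.6 CPM in WT 1, 2 and 3, with Abca4KO 2 just under WT 2 (log2 fold change 0.43, SE 0.57, adjusted p = 0.912; without Abca4KO 1 the log2 fold change was -0.46). Impg1 and Impg2, proteoglycans of the matrix around photoreceptors, had spans of 6.35 and 6.81, and Impg2 measured 41.7, 10.3 and 9.65 CPM in Abca4KO 1, 2 and 3, against 16.9, 6.12 and 18.2 CPM in WT 1, 2 and 3. Fscn2, an actin-bundling protein, had the fewest counts of the list. It had 82, 25 and 40 counts in Abca4KO 1, 2 and 3, against 52, 13 and 36 counts in WT 1, 2 and 3. The exact 95% Poisson interval was 65.2 to 101.8 counts in Abca4KO 1 and 6.92 to 22.2 counts in WT 2, which covers counting error only.

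Trafficking and folding genes included Unc119, which carries lipid-modified transducin to the outer segment. Unc119 (chromosome 11, 78343482 to 78349164, plus strand) measured 232, 169.6 and 173 CPM in Abca4KO 1, 2 and 3, against 235, 188 and 198 CPM in WT 1, 2 and 3. The groups overlapped, at 192 ± 35.3 CPM in Abca4KO and 207 ± 25.01 CPM in WT (SD, n = 3 per genotype). The fitted log2 fold change was -0.11 (SE 0.15, adjusted p = 0.911). Aipl1, the chaperone of phosphodiesterase 6, was at the other end with 24.2, 5.88 and 7.79 CPM in Abca4KO 1, 2 and 3, against 10.3, 2.63 and 13.5 CPM in WT 1, 2 and 3, the widest span of the 40 genes. Tulp1, which takes part in protein transport to the outer segment, and Reep6, a membrane protein of the rod secretory pathway, had spans of 4.90 and 4.38. Both had Abca4KO 1 highest and WT 2 lowest.

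The transcriptional regulators all followed the wide pattern. Nrl, the factor that specifies rods (chromosome 14, 55518978 to 55524981, minus strand), measured 83.3, 23.8 and 27.9 CPM in Abca4KO 1, 2 and 3, against 45.6, 16.4 and 46.3 CPM in WT 1, 2 and 3 (log2 fold change 0.32, SE 0.55, adjusted p = 0.936). Without Abca4KO 1 its log2 fold change was -0.48 and without WT 2 it was -0.03. Crx, the homeobox factor of photoreceptors, measured 47.7, 11.6 and 16.4 CPM in Abca4KO 1, 2 and 3, against 22.9, 5.74 and 24.6 CPM in WT 1, 2 and 3, and Nr2e3, which represses cone genes in rods, had a span of 6.92. Samd7, a repressor that silences other genes in rods, measured 7.26, 2.37 and 2.21 CPM in Abca4KO 1, 2 and 3, against 4.56, 0.913 and 4.03 CPM in WT 1, 2 and 3, with 17 counts in WT 2. It is the only member on chromosome 3, where Abca4 lies.

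Genes of the rod terminal, of retinoid reduction and of survival had spans under the median of the list, 4.86. The spans were 3.85 for Mpp4, 3.63 for Rdh12 and 3.26 for Cabp4, all among the wide genes, and 1.55 for the narrow gene Nxnl1. Mpp4, a scaffold of the presynaptic membrane, measured 28.8, 7.48 and 11.2 CPM in Abca4KO 1, 2 and 3, against 13.7, 10.4 and 14.5 CPM in WT 1, 2 and 3 (log2 fold change 0.30, SE 0.46, adjusted p = 0.929; without Abca4KO 1 the log2 fold change was -0.47). Its exons share 510 bases with the antisense gene G730003C15Rik, so its count is uncertain. Cabp4, which modulates the calcium channel of the terminal, measured 7.56, 2.32 and 5.17 CPM in Abca4KO 1, 2 and 3, against 4.19, 2.63 and 3.70 CPM in WT 1, 2 and 3 (log2 fold change 0.52, SE 0.44, adjusted p = 0.857). Rdh12, which reduces retinal in the inner segment, measured 20.96, 5.78 and 9.995 CPM in Abca4KO 1, 2 and 3, against 9.74, 7.19 and 10.996 CPM in WT 1, 2 and 3 (log2 fold change 0.40, SE 0.44, adjusted p = 0.891; without Abca4KO 1 the log2 fold change was -0.24). In Mpp4, Cabp4 and Rdh12 Abca4KO 2 and not WT 2 was the lowest library. Nxnl1, which encodes the rod-derived cone viability factor, measured 43.7, 28.1 and 37.5 CPM in Abca4KO 1, 2 and 3, against 40.9, 37.4 and 37.6 CPM in WT 1, 2 and 3, with Abca4KO 2 apart below the rest (log2 fold change -0.08, SE 0.16, adjusted p = 0.943).

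Other photoreceptor genes behaved alike in part. Of 38 tested genes in a list of photoreceptor genes outside the 40, Abca4 left aside, 0 passed the threshold in either direction (0.0461% of all tested genes). By edgeR 3 had an unadjusted p under 0.05, beside 7.02% of all tested genes. Of the 38, 22 were positive and 16 negative, and the median log2 fold change was 0.09. Abca4KO 1 was the highest library for 23 of them and WT 2 the lowest for 20. The one with the highest mean CPM, the outer segment cadherin Cdhr1, measured 2356, 2068 and 1989.6 CPM in Abca4KO 1, 2 and 3, against 2223, 1887 and 2674 CPM in WT 1, 2 and 3, a span of 1.42. The ribbon gene Ctbp2 had a span of 1.37 and the ciliary gene Tmem237 one of 1.28. Abca4, itself a photoreceptor gene, stayed between 932 and 968 CPM in the 3 WT libraries, where Gnat1 lay between 123 and 363 CPM.

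Markers of other cells were set beside the rod genes in each library. Cone markers were highest in Abca4KO 1 for 10 and lowest in WT 2 for 6 of 14 tested genes. Cone markers summed to 159, 106 and 115 CPM in Abca4KO 1, 2 and 3, against 118, 107 and 138 CPM in WT 1, 2 and 3. Thrb, with the highest mean CPM of them, had a span of 1.23. The short-wavelength opsin Opn1sw measured 24.4, 6.97 and 7.03 CPM in Abca4KO 1, 2 and 3, against 8.12, 2.36 and 11.3 CPM in WT 1, 2 and 3, and the cone arrestin Arr3 11.3, 3.15 and 4.30 CPM in Abca4KO 1, 2 and 3, against 5.71, 1.503 and 6.42 CPM in WT 1, 2 and 3, both in the order of the wide rod genes. Bipolar markers summed to 936, 967 and 954 CPM in Abca4KO 1, 2 and 3, against 951, 709.6 and 1037 CPM in WT 1, 2 and 3, led by Otx2 and Trpm1, which RPE cells also express, with Abca4KO 1 highest in 3 and WT 2 lowest in 8 of 14. The receptor Grm6, which defines ON bipolar cells, had 64, 31 and 88 counts in Abca4KO 1, 2 and 3, against 20, 0 and 81 counts in WT 1, 2 and 3, and the 0 in WT 2 allows up to 0.161 CPM at 3 counts.

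Markers of inner retinal neurons, Müller glia and the RPE did not share the order. Amacrine, horizontal and ganglion cell markers summed to 336, 322 and 373 CPM in Abca4KO 1, 2 and 3, against 342, 362 and 365 CPM in WT 1, 2 and 3, with Abca4KO 1 highest in 1 and WT 2 lowest in 3 of 13 tested genes. Müller glia and astrocyte markers had a span of 1.09 in their sum, most of which is Clu and Rdh10, and Abca4KO 1 was highest in 0 of 15. Some of them swung the other way. Gfap, Slc1a3 and Kcnj10, glial genes picked after their values were seen, had spans of 2.71, 3.15 and 3.18 and were lowest in Abca4KO 1. The glutamate transporter gene Slc1a3 measured 43.3, 104 and 64.6 CPM in Abca4KO 1, 2 and 3, against 82.05, 102 and 136 CPM in WT 1, 2 and 3. RPE markers summed to 48724, 46523 and 49248 CPM in Abca4KO 1, 2 and 3, against 49208, 40513 and 51383 CPM in WT 1, 2 and 3, lowest in WT 2, where 10 of 18 had their lowest value. Endothelial markers, in contrast, summed to 727, 764 and 1081 CPM in Abca4KO 1, 2 and 3, against 546, 740.3 and 449 CPM in WT 1, 2 and 3, with Abca4KO 1 highest and WT 2 lowest in 0 of 12. WT 2 also stood apart in 2 corneal keratin genes and in 1 leukocyte gene, picked after their values were seen. The macrophage list that holds the leukocyte gene summed to 1457 CPM in WT 2 and 1285 CPM in Abca4KO 2, so that gene does not stand for its list. The corneal keratin Krt12 had 155 CPM in WT 2 and at most 0.327 CPM in any other library, Krt5 199 CPM in WT 2 and at most 32.5 CPM elsewhere, and the leukocyte gene Ptprc 279.6 CPM in WT 2 and at most 98.7 CPM elsewhere. In each of these lists edgeR called 0 genes at the adjusted threshold. An unadjusted p under 0.05 was found in 7.02% of all tested genes. In the lists it was found in 7 of 12 endothelial markers (median log2 fold change 0.56), 3 of 10 fibroblast and sclera markers (0.21) and 1 of 10 macrophage markers (0.06). It was also found in 3 of 7 mural cell markers (0.09), 3 of 7 melanocyte markers (0.05) and 4 of 18 RPE markers (0.05). Müller glia and astrocyte markers had 3 of 15 (-0.07), bipolar markers 2 of 14 (0.34) and lens and epithelium markers 1 of 2 (-2.73). Cone markers had 0 of 14 (0.18) and amacrine, horizontal and ganglion cell markers 0 of 13 (0.27). The ratio of the 30 wide rod genes to the cone markers was 16.03, 6.79 and 7.24 in Abca4KO 1, 2 and 3, against 10.7, 4.30 and 8.70 in WT 1, 2 and 3. The same ratio to the bipolar markers was 2.72, 0.741 and 0.871 in Abca4KO 1, 2 and 3, against 1.33, 0.651 and 1.15 in WT 1, 2 and 3. The 30 rod genes were selected for a wide span in these same libraries and the marker lists were not. A wider rod swing was therefore built into both ratios, and they do not show that rod RNA varied apart from cone or bipolar RNA. The part that these other tissues, or adhering retina, have in the rod values was not tested.

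**Figure D5:**
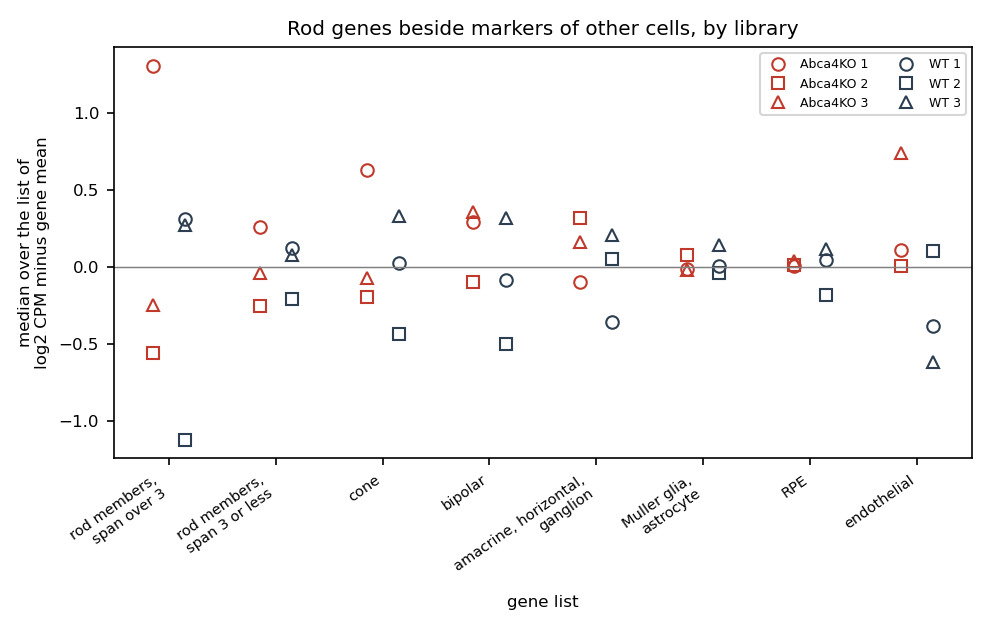
Median over each gene list of log2 CPM minus the gene's mean over the 6 libraries, by library, with Abca4KO (red) left of WT (dark), for tested genes with reads in every library. The 30 wide rod genes range from 1.31 in Abca4KO 1 to -1.12 in WT 2. They were selected by their span in these same libraries and the marker lists were not, so the sizes of the swings are not comparable. The 10 narrow rod genes stand at 0.258 in Abca4KO 1 and -0.207 in WT 2, and cone markers at 0.632 and -0.438. RPE markers stay between 0.118 in WT 3 and -0.179 in WT 2.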

How the data were processed

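The authors deposited raw read counts per Ensembl gene, whole numbers with 1 column per library. Per the submitters' processing notes the tools were STAR and HTSeq and the build mm10, with no version stated. Annotation release, strand setting and filters are not given in the sources used here, so overlapping genes on opposite strands cannot be told apart. Per the labels' protocols, RNA came from the RNAqueous-Micro kit (1 µg per sample) and library preparation used NEBNext Ultra.

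Abca4KO was compared with WT, 3 mice each, by edgeR 4.0.16 (R 4.3.3): filterByExpr with a minimum count of 10 (17340 genes), TMM, the 2-sided quasi-likelihood test and Benjamini-Hochberg adjustment over all tested genes at 0.05. Standard errors were derived from the fold change and the square root of F, and fold changes use a prior count of 0.125. TPM values were computed from the counts and the deposited gene lengths, which were not adjusted for fragment length. An exact permutation test of 3 against 3 libraries cannot go below p = 0.1. No 2 libraries matched within sampling noise (chi-square per degree of freedom at least 12.6). Similar transcripts in GENCODE M21 were searched with BLAST 2.17.0 (95% identity over 300 bases), and overlaps by coordinates.

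Alternatives were RLE and upper-quartile size factors, other filters, DESeq2 1.42.0, limma 3.58.1 voom with sample weights, a replicate block, a marker covariate and each library left out. Per-library values are printed for the gene with the highest mean CPM in each role, for genes whose highest or lowest library differed and for examples chosen after values were seen. The members and lists were chosen with earlier results of these data known.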

Additional observations from a re-analysis of the deposited data

How the results depend on the processing

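Under every alternative run, DESeq2 and limma-voom included, 0 rod genes and 0 other photoreceptor genes besides Abca4 were called. Abca4 kept its call (log2 fold change -4.78 to -4.65 with single libraries left out). At an unadjusted p under 0.05 there were 0 to 3 of the 40 rod genes, beside 761 to 2938 of all tested genes. The 3 came from limma-voom, where 2938 of 17340 tested genes were under that limit. Over all genes the 8 calls (6 higher, 2 lower) became 114 (60 and 54) in DESeq2, 31 (14 and 17) in limma-voom with sample weights, 28 (17 and 11) with a covariate of bipolar, amacrine, horizontal and ganglion cell markers and 19 (12 and 7) without a low-count filter. With single libraries left out there were 3 to 11 calls, 2 to 6 higher and 1 to 5 lower. Whether replicate numbers pair the mice was not settled. Deviations of same-numbered libraries correlated at 0.167, 0.344 and -0.076, and those of differently numbered libraries at -0.367 to 0.308. A replicate block gave 9 calls, 6 higher and 3 lower, with a rod median of 0.313. With the block the SE was 0.268 for Gnat1 and 0.101 for Rgs9, against 0.522 and 0.118 without it. RLE and upper-quartile size factors gave rod medians of 0.405 and 0.409.

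The direction of the rod median was not stable. It was -0.0124 with the marker covariate, -0.157 in limma-voom with sample weights, which gave Abca4KO 1 a weight of 0.669 and WT 2 one of 0.373, and -0.282 to 0.719 with single libraries left out. The cause of the reversal in limma-voom was not tested. With the covariate the log2 fold change was -0.01 for Mpp4, -0.11 for Nrl, -0.02 for Pde6a and -0.04 for Rp1l1. In limma-voom it was -0.06 for Gnb1, -0.13 for Mpp4, -0.32 for Nrl, -0.42 for Pde6a, -0.22 for Rp1l1 and -0.06 for Sag. With single libraries left out it ran from -0.05 to 0.15 for Gnb1, from -0.31 to 0.25 for Gucy2f, from -0.28 to 0.59 for Kcnv2, from -0.47 to 0.64 for Mpp4, from -0.48 to 0.63 for Nrl, from -0.24 to 0.07 for Nxnl1, from -0.53 to 0.70 for Pde6a, from -0.12 to 0.12 for Prcd, from -0.24 to 0.74 for Rdh12, from -0.20 to 0.12 for Rom1, from -0.46 to 0.81 for Rp1l1 and from -0.28 to 1.04 for Sag. The precision was set by the spread between the 3 libraries of a group, with SEs of 0.388 to 0.698 log2 units for the 30 wide genes and 0.11 to 0.397 for the 10 narrow ones.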

Other observations

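A further 202 tested genes outside the list had the same order of libraries as 27 of the rod genes, and 59 of them, with reads in every library, had a span over 3. Of these, 15 averaged 10 CPM or more, and their 4 widest, a choice made after the values were seen, were Rnf207, Opn1sw, Samd11 and Rtbdn. Rnf207, a ring finger gene, measured 34.6, 5.06 and 10.9 CPM in Abca4KO 1, 2 and 3, against 11.05, 3.17 and 14.5 CPM in WT 1, 2 and 3. Samd11, a relative of Samd7, measured 29.2, 5.31 and 12.03 CPM in Abca4KO 1, 2 and 3, against 14.5, 4.24 and 13.3 CPM in WT 1, 2 and 3. Rtbdn, which encodes the flavin-binding protein retbindin of rods, measured 24.6, 6.50 and 8.78 CPM in Abca4KO 1, 2 and 3, against 12.9, 3.60 and 10.1 CPM in WT 1, 2 and 3. In Rnf207, Samd11 and Rtbdn the groups overlapped, with adjusted p-values of 0.868, 0.901 and 0.883 in edgeR's quasi-likelihood test.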
